A study of Mus musculus with 4 samples.

Results

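The 10 core genes of the circadian clock were compared between the ventricles of Hnrnpu mutant and control mice at postnatal day 14. The genes were taken by symbol (Arntl, Clock, Per1, Per2, Per3, Cry1, Cry2, Nr1d1, Nr1d2 and Dbp), and each had a single row among the 36814 rows of the deposited gene table. All 10 were above 0 in both groups and carried a test. RNA came from heart ventricles with the atria removed, on a mixed C57BL/6 and 129 S4 background, and the 4 animals fell into 2 groups of 2. Controls were wild type, and the labels name no Cre or floxed allele for them. Mutants lost a conditional Hnrnpu allele through Ckmm-Cre, whose recombinase is made under the promoter of muscle creatine kinase, so that deletion was aimed at striated muscle, and other cells of the ventricle are not targets of this promoter. Each group held 1 male and 1 female. The labels give no clock time of collection for any animal, and whether such a time differed between the groups was not tested.

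Nearly every cell of the body keeps time with a feedback loop of transcription. The activators BMAL1 (encoded by Arntl) and CLOCK bind E-box sequences and switch on the Per and Cry genes, whose proteins return to the nucleus and inhibit that activator. A second loop joins in, in which the REV-ERB repressors (Nr1d1 and Nr1d2) and the ROR activators compete for elements of the Arntl gene, while DBP and its relatives act on D-box sequences against the repressor NFIL3. In cardiomyocytes the same clock is known to time metabolism and ion channel expression, and Arntl transcripts normally run opposite in phase to those of Nr1d1, Dbp and the Per genes.

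One clock gene rose in the mutant and 1 fell. Arntl went from 1.56 RPKM (reads scaled by transcript length and by library size) in control to 5.07 in mutant, and Per3 went from 4.78 to 0.985. Nr1d2 and Dbp were also lower in mutant by more than any other member that failed the test, at 10.2 and 3.67 RPKM for Nr1d2 and at 4.12 and 1.44 RPKM for Dbp. Clock, Per1, Per2, Cry1, Cry2 and Nr1d1 each differed by less than 1.6-fold and did not pass the test. The files give 1 value by the authors for each group, so no level has a spread of its own and overlap between animals could not be seen. Where a pair of RPKM values is given, the control value comes first.

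A gene was called when its adjusted p in the authors' deposited table was below 0.05. By that rule 2 of 10 members were called (20%), beside 3.51% of the 24454 rows tested. The single higher member stands beside 2.03% of rows called higher, and the single lower member beside 1.48% called lower. At an unadjusted p below 0.05 there were 4 members (40%) in the authors' deposited table, against 12.6% of rows. All 10 members had a mean of at least 1 RPKM, whereas 11292 of the 24454 tested rows did. The share called among those 11292 rows was not computed. The shares of all rows given here and for the lists below are therefore not matched for level. The median log2 fold change of the members was 0.27, beside 0.08 for the 11292 rows with a mean of at least 1 RPKM. Regardless of sign, the median size of change was 0.62 beside 0.50. No row of the table was called at less than a 3.03-fold difference, which bounds what a missing call of a clock gene can say.

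**Figure D1:**
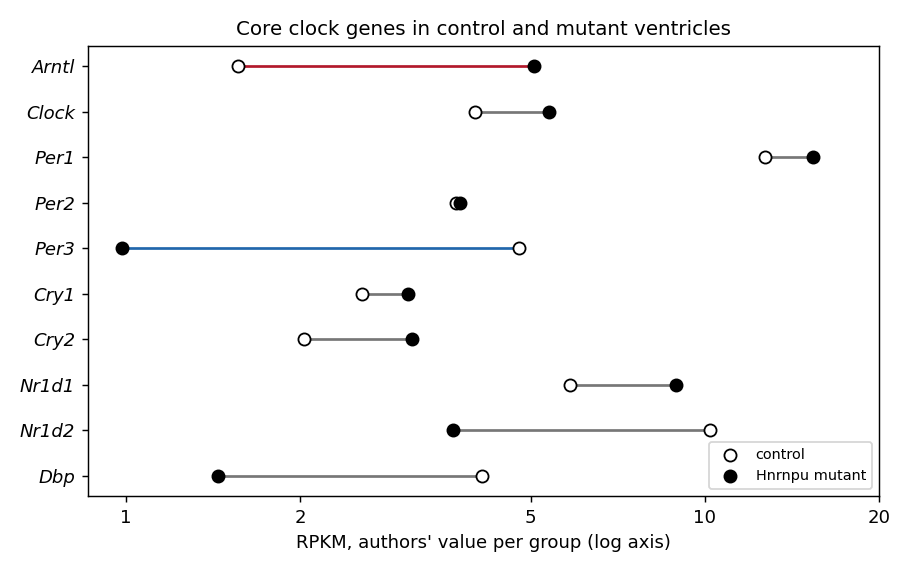
Levels of the 10 core clock genes in RPKM on a log axis, with the authors' value for control (open) and for Hnrnpu mutant (filled) joined by a line, red for the called rise and blue for the called fall. Arntl moves from the lowest level of the set in control to 5.07 RPKM, and Per3 moves to the lowest level in mutant, 0.985 RPKM.

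Promoter sequences are shown for Arntl and Per3, the called members, because they hold different clock motifs, and for Per1 and Cry1 because they hold the E-box. RefSeq promoter windows (GRCm38.p6, from 250 bases before to 50 after a start site) matched 9 of the 10 members with 13 windows. Per2 had none. Both strands were searched for the E-box CACGTG, the related E-prime box CACGTT, the D-box TTANGTAA and the ROR element TAGGTCA, which contains the half-site AGGTCA. Capitals mark only the motif named with each stretch. The CACGTT match of Cry1 and the AGGTCA match of Per1, both read on the opposite strand, stay in lower case. The Arntl stretch lies at chr7:113207530-113207559 on the plus strand, 30 bases that hold a ROR element just after its second listed start. The others are the 250 bases before a start, at chr4:151044666-151044915 for Per3 (minus strand, D-boxes), chr11:69098699-69098948 for Per1 (plus strand, E-box) and chr10:85185055-85185304 for Cry1 (minus strand, E-box).
Arntl: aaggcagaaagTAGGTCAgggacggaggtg
Per3: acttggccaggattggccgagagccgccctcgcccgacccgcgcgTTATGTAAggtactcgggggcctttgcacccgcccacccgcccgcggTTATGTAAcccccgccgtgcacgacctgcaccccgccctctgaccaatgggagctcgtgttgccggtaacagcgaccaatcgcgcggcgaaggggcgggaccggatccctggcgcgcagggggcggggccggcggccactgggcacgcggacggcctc
Per1: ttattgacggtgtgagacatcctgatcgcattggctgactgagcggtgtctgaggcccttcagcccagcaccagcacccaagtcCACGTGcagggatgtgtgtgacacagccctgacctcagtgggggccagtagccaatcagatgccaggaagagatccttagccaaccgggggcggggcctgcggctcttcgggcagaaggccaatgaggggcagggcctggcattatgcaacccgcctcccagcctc
Cry1: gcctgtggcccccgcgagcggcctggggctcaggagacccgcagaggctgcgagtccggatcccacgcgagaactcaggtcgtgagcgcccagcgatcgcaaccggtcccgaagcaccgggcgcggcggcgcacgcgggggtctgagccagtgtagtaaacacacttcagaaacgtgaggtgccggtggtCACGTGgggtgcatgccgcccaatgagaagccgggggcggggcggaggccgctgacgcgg
Among the members, the D-box letters occurred in the window of Per3 alone, which holds 2 copies starting 205 and 158 bases before the start. Of all 32851 windows, 2.32% hold the D-box letters. Among the genes listed below as other clock transcription factors, Rorb and Timeless hold them too. The ROR element occurred in 1 of the 2 Arntl windows and in no other member, against 2.61% of all windows. An E-box CACGTG was found for Per1 and Cry1 (7.15% of all windows), and CACGTT for Cry1, Cry2 and Nr1d1 (4.68%). The half-site AGGTCA was found for Arntl, Clock, Per1 and Nr1d2 (16.3%). These matches describe letters in short windows, and no binding was measured.

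Of the activator pair, Arntl was called and Clock was not. Arntl (chromosome 7, 120350979 to 120457636 in mm9, plus strand) had 1.56 RPKM in control and 5.07 in mutant, a 3.24-fold rise in the authors' deposited table with p = 0.00129 and adjusted p = 0.0402. Its log2 fold change was 1.70, with a 95% interval from 0.66 to 2.73 built from the error that the p-value implies. Of the rows with a mean of at least 1 RPKM, 5.87% differed by as much as Arntl in either direction. Clock (chromosome 5, 76639992 to 76733817, minus strand), the partner of BMAL1, had 4.01 RPKM in control and 5.38 in mutant. Its fold of 1.34 in the authors' deposited table gave adjusted p = 0.938, and its log2 interval was -0.58 to 1.42. Arntl and Clock have overlapping intervals, and the difference between their changes was not tested. Arntl was thus listed at 0.389 times the level of Clock in control and at 0.942 times in mutant. Npas2, which can stand in for CLOCK, was listed at 1.77 and 1.87 RPKM with an interval from -0.75 to 0.92.

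Of the 3 Period genes, which encode the clock's inhibitors, Per3 was the one called. Per3 (chromosome 4, 150377761 to 150418774, minus strand) had 4.78 RPKM in control and 0.985 in mutant, or 0.206 times control in the authors' deposited table, with p = 1.38e-05 and adjusted p = 0.00127. Its log2 fold change of -2.28 (95% interval from -3.31 to -1.25) was matched or passed in size by 2.39% of rows with a mean of at least 1 RPKM. Per1 (chromosome 11, 68908719 to 68923462, plus strand), the member with the highest level in both groups, had 12.7 RPKM in control and 15.4 in mutant. Its adjusted p was 1 in the authors' deposited table, with an interval from -0.79 to 1.35. Per2 (chromosome 1, 93312561 to 93355907, minus strand) had 3.72 and 3.77 RPKM, the least changed of all members, with an interval from -0.93 to 0.97. The intervals of Per1 and Per2 do not reach that of Per3, but the difference between the genes' changes was not tested. Per1 was 2.66 times the level of Per3 in control and 15.6 times in mutant.

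The cryptochromes, which join the PER proteins in inhibiting BMAL1 and CLOCK, gave no call. Cry1 (chromosome 10, 84594447 to 84647799, minus strand) had 2.56 RPKM in control and 3.07 in mutant, with an interval from -0.75 to 1.28 on the log2 scale. Cry2 (chromosome 2, 92243803 to 92274200, minus strand) had 2.03 and 3.12 RPKM, or 1.54-fold with adjusted p = 0.751 in the authors' deposited table. The interval of Cry2 ran from -0.37 to 1.62. Both intervals reach above 1 on the log2 scale and neither reaches down to -1.

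The 2 REV-ERB repressors, which act on Arntl through ROR elements, were listed in opposite directions. Nr1d1, REV-ERB alpha (chromosome 11, 98629246 to 98636647, minus strand), had 5.85 RPKM in control and 8.92 in mutant, with adjusted p = 0.778 in the authors' deposited table. Nr1d2, REV-ERB beta (chromosome 14, 19036568 to 19071641, minus strand), had 10.2 RPKM in control and 3.67 in mutant. For Nr1d2 the fold was 0.360 in the authors' deposited table, with p = 0.00464 and adjusted p = 0.0961, so it did not pass the threshold. The log2 interval of Nr1d1, from -0.41 to 1.62, and that of Nr1d2, from -2.50 to -0.45, do not overlap, although the difference itself was not tested. Nr1d1 was listed at 0.574 times the level of Nr1d2 in control and at 2.43 times in mutant. Rora, an activator that competes with them, was listed at 1.90 RPKM in control and 2.35 in mutant, and Rorb at 0.0890 and 0.0757, neither with a call.

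Dbp, an activator at D-boxes and a direct output of the clock (chromosome 7, 52960458 to 52965525, plus strand), had 4.12 RPKM in control and 1.44 in mutant. For Dbp the fold was 0.350 in the authors' deposited table, with p = 0.00547 and adjusted p = 0.107, and no call. Its interval ran from -2.58 to -0.45 on the log2 scale, and 7.81% of rows with a mean of at least 1 RPKM differed by as much. Of its relatives of the PAR family, Hlf was listed at 2.21 RPKM in control and 1.02 in mutant (p = 0.0367, adjusted p = 0.340 in the authors' deposited table). Tef, the third of the family, was listed at 9.30 and 8.49 RPKM with an interval from -1.12 to 0.85. Nfil3, the repressor that binds the same D-boxes, rose from 3.47 to 11 RPKM. For Nfil3 this was 3.18-fold with adjusted p = 0.0363 in the authors' deposited table, and its interval ran from 0.66 to 2.67.

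**Figure D2:**
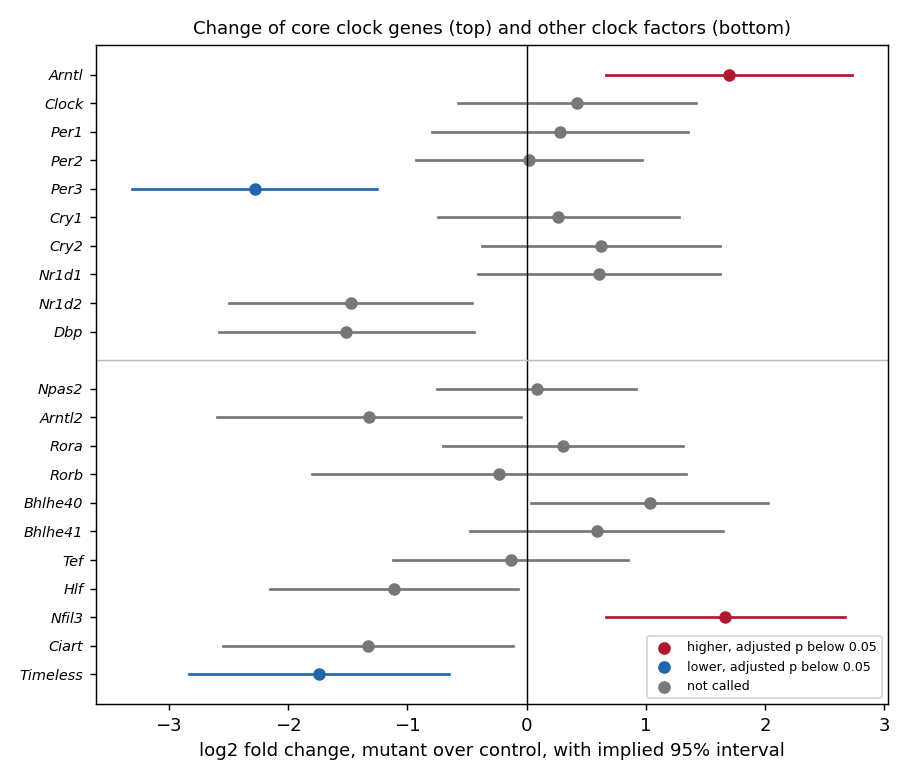
The log2 fold change of mutant over control for the 10 core clock genes (top) and 11 of the 12 genes listed as other clock transcription factors (bottom). Bars give the 95% interval implied by the deposited p-value. Arntl and Nfil3 are the called rises and Per3 and Timeless the called falls, and the intervals of Nr1d2 and Dbp also lie below 0 although these genes were not called after adjustment.

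The promoter of Nfil3 is given because it carries the ROR element, a choice made after its change and the match were seen. Of all windows 2.61% hold this element, and how their genes changed was not examined. Whether the element bears on the rise of Nfil3 or of Arntl was not tested. The promoter of Ciart is given for its E-boxes. RefSeq windows matched 10 of the 12 genes listed as other clock transcription factors, with 12 windows. The ROR element was found in the window of Nfil3 alone, on the strand opposite to the gene, starting 12 bases before the start site. The stretches are chr13:52981040-52981289 for Nfil3 and chr3:95882229-95882478 for Ciart, both on the minus strand and in GRCm38.p6.
Nfil3: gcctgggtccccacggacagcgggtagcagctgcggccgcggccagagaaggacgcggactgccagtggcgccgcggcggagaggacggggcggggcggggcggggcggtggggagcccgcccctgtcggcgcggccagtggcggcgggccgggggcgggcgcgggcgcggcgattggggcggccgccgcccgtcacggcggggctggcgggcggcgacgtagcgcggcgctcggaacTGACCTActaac
Ciart: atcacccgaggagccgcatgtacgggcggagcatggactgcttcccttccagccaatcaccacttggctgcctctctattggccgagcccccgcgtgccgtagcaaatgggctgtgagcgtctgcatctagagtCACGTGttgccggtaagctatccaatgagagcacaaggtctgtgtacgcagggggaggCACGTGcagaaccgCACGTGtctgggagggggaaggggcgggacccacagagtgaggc
The window of Ciart, which encodes a repressor of the BMAL1 and CLOCK pair, holds 3 E-boxes. Ciart (listed under its older symbol Gm129) had 1.86 RPKM in control and 0.740 in mutant, with p = 0.0319 and adjusted p = 0.314 in the authors' deposited table. Bhlhe41 and Tef also hold an E-box, with Bhlhe41 at 1.58 and 2.38 RPKM and Tef at 9.30 and 8.49 RPKM. Per1 and Cry1, the members with an E-box, were listed above control. Genes with these letters were thus listed on both sides of control, and none of them was called.

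Of the 12 genes listed as other clock transcription factors, Nfil3 rose, 1 fell and 10 did not pass the test. This was 16.7% called, beside 3.51% of tested rows. The median log2 fold change of the 12 was -0.18. The one that fell was Timeless, from 1.72 to 0.514 RPKM with adjusted p = 0.0497 in the authors' deposited table, close to the threshold. Its product works at replication forks and is not itself a transcription factor. No transcription factor of this list was therefore called lower. Bhlhe40 and Bhlhe41, the DEC repressors of E-boxes, were listed higher in mutant, Bhlhe40 at 4.86 and 9.94 RPKM and Bhlhe41 at 1.58 and 2.38 RPKM. Bhlhe40 had p = 0.0413 and adjusted p = 0.363 in the authors' deposited table. Arntl2, the paralogue of Arntl, was listed at 1.03 RPKM in control and 0.413 in mutant (p = 0.0417, adjusted p = 0.365 in the authors' deposited table), in the direction opposite to Arntl. At an unadjusted p below 0.05 there were 6 of 12 factors in the authors' deposited table, beside 12.6% of tested rows.

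The enzymes and cofactors that modify clock proteins gave 0 calls among 26 genes in the authors' deposited table, beside 3.51% of tested rows called. The median log2 fold change was 0.02. An unadjusted p below 0.05 was held by 1 gene in the authors' deposited table, beside 12.6% of tested rows. That gene was Fbxw7, a substrate receptor of a ubiquitin ligase, at 11.3 RPKM in control and 3.92 in mutant (p = 0.00408, adjusted p = 0.0884, both from the authors' deposited table). The kinases that phosphorylate PER proteins were among those without a call, with Csnk1d at 5.62 and 8.52 RPKM and Csnk1e at 7.83 and 8.50 RPKM.

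Genes known to follow the clock in many tissues were listed on both sides of control. Of 11 genes, which include Tef, Hlf, Ciart, Nfil3 and Bhlhe41 from above, Nfil3 rose and 10 were not called (9.09% called, beside 3.51% of tested rows). Above control were 7 and below it 4, directions that rest on genes without a call apart from Nfil3. Tsc22d3, a glucocorticoid-induced leucine zipper protein, was listed at 14.6 RPKM in control and 35.2 in mutant, Tspan4, a tetraspanin, at 6.68 and 16.5, and Por, cytochrome P450 reductase, at 4.61 and 11.2. Their unadjusted p-values in the authors' deposited table were 0.0257, 0.0105 and 0.0124, and none passed after adjustment. Usp2, a deubiquitinase and a strong clock output, was listed at 13.5 and 13.1 RPKM with an interval from -1.0 to 0.90.

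Of 14 genes described as controlled by the clock in heart, 2 rose, 3 fell and 9 were not called (35.7% called, beside 3.51% of tested rows). The list was chosen with earlier results of these data known, so its called share does not measure an excess. The falls were those of Kcnip2 and Kcnd2, subunits of the transient outward potassium channel, and Ucp3, a mitochondrial carrier, to 1.61, 0.0633 and 2.28 RPKM from 12.6, 2.14 and 9.16. Bdh1, an enzyme of ketone body use, rose from 0.0256 to 0.464 RPKM, a level below the filter of 1 RPKM that leaves 4 calls in this list, and Cdkn1a, the cell cycle inhibitor p21, from 10.4 to 192 RPKM. Klf15, a transcription factor that links the clock to Kcnip2 in heart, was listed at 3.16 RPKM in control and 8.09 in mutant (p = 0.00877, adjusted p = 0.146 in the authors' deposited table), opposite in direction to Kcnip2. Dgat2, an enzyme of triglyceride synthesis, was listed at 17.6 and 6.53 RPKM with adjusted p = 0.107 in the authors' deposited table. Over the 14 genes the median log2 fold change was -0.17.

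**Figure D3:**
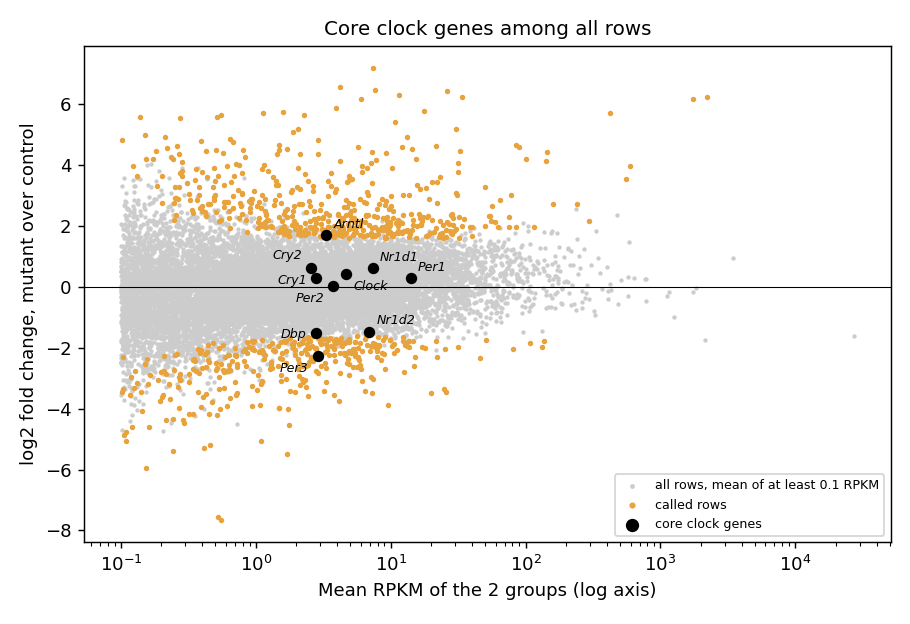
Log2 fold change against the mean RPKM of the groups (log axis) for rows with a mean of at least 0.1 RPKM, with called rows in orange and the core clock genes as labelled black points. Arntl and Per3 lie among the called rows, Nr1d2 and Dbp beside the inner edge of the called falls, and the other 6 members inside the grey band.

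Levels of the clock genes spanned 8.14-fold in control, from Arntl at 1.56 to Per1 at 12.7 RPKM, and 15.6-fold in mutant, from Per3 at 0.985 to Per1 at 15.4 RPKM. In control the order from the top was Per1, Nr1d2, Nr1d1, Per3, Dbp, Clock, Per2, Cry1, Cry2 and Arntl. In mutant it was Per1, Nr1d1, Clock, Arntl, Per2, Nr1d2, Cry2, Cry1, Dbp and Per3. With 1 value per group, neighbours in these orders could not be set against a spread. The error implied for a member's log2 fold change was alike across the set, from 0.49 to 0.55. A rough count from RPKM, the exonic length of a later annotation and the worth of 1 read placed the least covered values near 500 reads, at 479 to 663 for Dbp in mutant and 425 to 500 for Cry1 in control.

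Some members share their locus with another gene, and whether counting used strand is not given in the sources used here. Nr1d1 overlaps Thra on the other strand by 1075 bases, and Thra was listed at 14.0 and 13.7 RPKM. Dbp overlaps Sphk2 by 689 bases on the other strand, with Sphk2 at 3.86 and 3.52 RPKM, and Cry2 overlaps the noncoding gene D930015M05Rik by 23417 bases, at 0.469 and 0.690 RPKM. Per1 overlaps the row of Vamp2 on its own strand by 13780 of the 14744 bases of the Per1 locus, with Vamp2 at 5.87 RPKM in control and 9.16 in mutant, and this touches the place of Per1 as the highest member. None of these 4 neighbours was called, and reads of the overlapping stretches cannot be assigned. Arntl, Clock, Per2, Per3, Cry1 and Nr1d2 overlap no other row.

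Clock genes are expressed in all cell types of the ventricle, and in bulk RNA fewer cells of a type and less RNA per cell cannot be told apart. The targeted gene Hnrnpu was listed at 32.7 RPKM in control and 15.2 in mutant with adjusted p = 0.438 in the authors' deposited table. Cardiomyocyte markers were present, at 52.2 to 1840 RPKM in control, with 9 of 10 below control in mutant and a summed level of 7694 and 5893 RPKM. Macrophage markers were above control in 8 of 8 (summed 57.4 and 130 RPKM), fibroblast markers in 5 of 8 (655 and 812), and endothelial markers below control in 6 of 8 (156 and 135). Erythroid markers were above control in 7 of 7 (177 and 307). No cardiomyocyte, macrophage, fibroblast, endothelial or erythroid marker was called, nor any atrial or brown fat marker. These missing calls do not show that levels were alike, since implied log2 intervals were wide for some abundant markers. That of Myh6 ran from -7.3 to 5.3, that of Ttn from -5.8 to 4.1 and that of Col3a1 from -2.0 to 2.6. Mural markers were above control in 5 of 7, with Tagln called, and most of their summed 268 and 928 RPKM was Acta2, at 158 and 802 without a call, whereas Rgs5 was listed at 76.6 and 57.9, Myh11 at 3.93 and 2.95 and Pdgfrb at 14.2 and 14.4. Atrial markers summed to 43.7 and 30.1 RPKM, with Bmp10 at 0.0457 RPKM in control and 0 in mutant. Brown fat markers summed to 349 and 265 RPKM, of which Fabp4, which the heart also expresses, gave 339 and 255, with Plin1 at 0 in control. Skeletal muscle markers summed to 470 and 356 RPKM, of which Ckm, also a heart gene, gave 468 and 355, with Tnni2 called lower, so these sums do not measure brown fat or skeletal muscle. The part of these differences in the levels of Arntl, Per3 and the other clock genes was not tested.

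**Figure D4:**
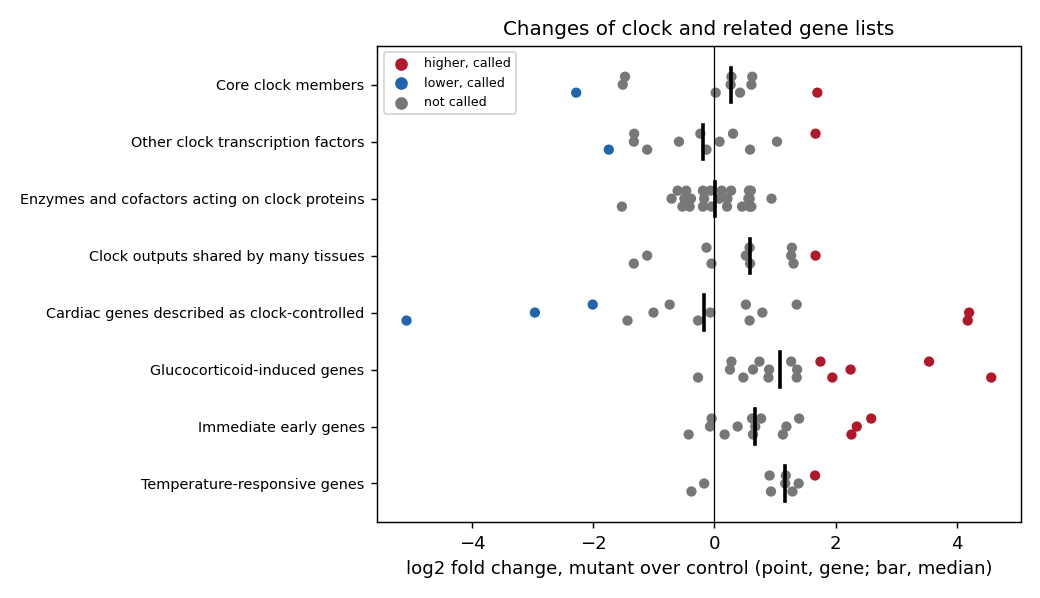
Log2 fold change of mutant over control for every gene of the clock lists and of 3 related lists, each point a gene, red or blue where called, with a bar at the list's median. The core clock genes lie on both sides of 0 with a median of 0.27, and the medians of the glucocorticoid-induced, immediate early and temperature-responsive genes are 1.08, 0.67 and 1.17.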

How the data were processed

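RNA of 4 ventricle samples was sequenced, and 1 deposited table for both groups was used. Per the file headers, it holds RPKM as 1 authors' value per group, with the ratio (fold) of mutant to control and its log2 value. The authors' deposited p-value and adjusted p-value complete each row. Bowtie 0.12.9, the build mm9 and DESeq are named by the submitters' processing notes, with no role stated, so the authors' test is taken as given. Which counter was used, and whether by strand, is not given in the sources used here.

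Of 36814 rows, 12360 were at 0 in both groups and were untested. Deposited folds lay within 0.971% of the RPKM ratio, and the Benjamini-Hochberg adjustment recomputed over 24454 rows from the deposited one by at most 0.593%. Genes were called at an adjusted p below 0.05 across all genes tested. Intervals took the error as the log2 fold change divided by the normal score of the two-sided p, an approximation. Depth is not stated. RPKM times length of small RNA genes seen in 1 group alone clustered at 0.0171 and 0.0201 in control (60 of 78 genes within 3%) and at 0.0065 and 0.009 in mutant (93 of 121), taken as the worth of 1 read, and GENCODE vM21 exonic lengths gave rough reads. A smaller worth of 1 read goes with a deeper library, so by this estimate the mutant libraries were deeper than the controls. Depth thus differed along with genotype, and its effect on the calls was not tested. The labels do not say whether the animals were littermates.

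The planned models needed values per sample and were not run. Members and gene lists were chosen with earlier results of these data known, so their called shares beside those of all rows do not measure an excess. All 10 members are named. Of the other lists, called genes, all other clock transcription factors and, in clock lists, genes with an unadjusted p below 0.05 are named, except 1 factor not reported here, and marker lists are given as counts. Some genes without a call (Csnk1d, Csnk1e, Usp2, Junb, Cirbp and Rbm3) and the promoters printed were chosen after their values or matches were seen. Analyses ran in Python 3.11.15 with pandas 2.3.3 and scipy 1.17.1, and the adjustment and the implied error were tested on simulated data.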

Additional observations from a re-analysis of the deposited data

How the results depend on the processing

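Per3 was called lower under every setting that kept it, and Arntl was called higher except at the stricter threshold. With an adjusted p threshold of 0.01, the called members dropped from 2 to 1, Per3, since Arntl had adjusted p = 0.0402 in the authors' deposited table. Adjusted over rows with a mean of at least 5 RPKM, 0 members were called, because Arntl and Per3 fall below that level and 3 members are left, 1 of them with an unadjusted p below 0.05 in the authors' deposited table. With a threshold of 0.1, Nr1d2 joined the calls (adjusted p = 0.0961 in the authors' deposited table), and the list of enzymes and cofactors had 1 call, Fbxw7. Over rows with a mean of at least 1 RPKM the adjusted p was 0.0264 for Arntl, 0.000789 for Per3, 0.0659 for Nr1d2 and 0.0743 for Dbp. Centring on the median of rows with a mean of at least 1 RPKM turned the sign of Per2 (from 0.02 to -0.06) and of no other member, and took the members' median from 0.27 to 0.19. With 1 RPKM added before the log, the change of Per3 was -1.54. In all, 89 of 95 alternatives kept the direction and the side of the threshold or stayed near the reported value. The count of 3 called members at a threshold of 0.1 and the turned sign of Per2 are among these 89. A new threshold leaves each deposited adjusted p as it is, so for genes far above 0.1 no other outcome was possible there. The 89 of 95 therefore does not measure how robust the calls are. No paired analysis was possible because the table gives 1 value per group, and leaving out replicates and other count models were not run for the same reason.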

Other observations

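Genes induced by glucocorticoids, among which Per1 is counted, were mostly listed above control. Of 16 genes 5 rose (31.2%, beside 2.03% of tested rows called higher), none fell and 11 were not called, and 15 were listed above control, with a median log2 fold change of 1.08 beside 0.08 over rows with a mean of at least 1 RPKM. Fkbp5, a chaperone of the glucocorticoid receptor, rose from 0.465 to 11 RPKM, a 23.7-fold change in the authors' deposited table with adjusted p = 8.95e-13. Mt2, a metallothionein, rose from 0.817 to 9.50 RPKM, Cebpd, a transcription factor, from 3.60 to 17.1 RPKM, Ddit4, an inhibitor of mTORC1, from 15.9 to 61.4 RPKM, and Errfi1, an inhibitor of the EGF receptor, from 4.37 to 14.7 RPKM. Per1 itself, at 12.7 and 15.4 RPKM, was not called. Hormone levels were not measured, and these genes also answer to other signals. This list too was chosen with earlier results of these data known, so its called share does not measure an excess.

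Of 15 immediate early genes, which react within minutes to stimulation or handling, 3 rose and none fell, beside 2.03% of tested rows called higher. Of the 15, 12 were listed above control, with a median log2 fold change of 0.67, and over rows with a mean of at least 1 RPKM there were 2 calls, Fos and Maff. Fos rose from 1.5 to 7.19 RPKM, Fosb from 0.111 to 0.664 RPKM and Maff from 1.33 to 6.75 RPKM, while Junb was listed at 5.29 and 13.9 RPKM with adjusted p = 0.123 in the authors' deposited table. Of 9 genes that respond to temperature, Hspb1, a small heat shock protein, rose from 8.76 to 27.7 RPKM and 8 were not called. This was 11.1% called, beside 3.51% of tested rows. Above control were 7 of the 9, with a median log2 fold change of 1.17. Cirbp and Rbm3, the cold-inducible RNA-binding proteins, were not called, with Cirbp at 6.57 RPKM in control and 12.5 in mutant and Rbm3 at 3.36 and 2.99.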
